A study of Mus musculus with 8 samples.

Results

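The 10 genes described here encode the FoxO transcription factors *Foxo1*, *Foxo3* and *Foxo4*, the deacetylase *Sirt1* that acts on FoxO proteins, and 6 genes known as FoxO targets, *Gadd45a*, *Cited2*, *Bcl6*, *Sesn1*, *Sesn3* and *Ccng2*. They were taken by symbol from a table of 27041 genes, and each had a single row. All 10 passed the limit of a mean count above 50 over the libraries, as did 11364 of the genes in all. The study asked what the histone demethylase LSD1, encoded by *Kdm1a*, does in skeletal muscle and compared RNA-seq of muscle from 9-week-old male mice with and without it. All mice were C57BL/6J and carried floxed LSD1 alleles (LSD1 L2/L2), with LoxP sites around exon 1. Mutant mice, LSD1skm-/-, also carried HSA-Cre, a recombinase expressed from a skeletal actin promoter in myofibers and not in the other cells of the muscle. Control mice, Ctrl, lacked the recombinase. The labels describe 8 libraries, 4 per group, and counts of 6 of them were read here, from Ctrl replicates 1 to 4 and LSD1skm-/- replicates 1 and 2. LSD1skm-/- replicates 3 and 4 were not analysed here. *Foxo1*, *Sirt1*, *Gadd45a* and *Bcl6* each overlap a gene on the opposite strand (*Gm20402*, *Gm16145*, *E230016M11Rik* and *Gm37419*). The library kit keeps strand, but the sources used here do not say that the counting did, so reads of these pairs may not have been told apart. The labels do not say that each library came from its own mouse, in which case the p-values would measure only the spread between these samples.

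FoxO factors are forkhead proteins that bind DNA in the nucleus and activate genes of proteolysis, autophagy, stress resistance and cell cycle arrest. Insulin and growth factors restrain them through AKT, which phosphorylates FoxO proteins and leads to their export from the nucleus, and fasting and glucocorticoids relieve this restraint. In skeletal muscle they are best known for turning on the ubiquitin ligases of atrophy, *Fbxo32* and *Trim63*. SIRT1 removes acetyl groups from FoxO proteins and changes which targets they activate. RNA levels carry no information on phosphorylation, acetylation or localization of these proteins.

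Library totals ranged from 30654828 to 41278769 counted reads, and levels are given as CPM, counts scaled to a common library total, after edgeR's TMM scaling. The library labelled Ctrl replicate 4 went against its label for the targeted gene. It held 3.66 CPM of *Kdm1a*, against 22.9, 22.0 and 28.1 CPM in Ctrl replicates 1 to 3 and 2.96 and 3.48 CPM in LSD1skm-/- replicates 1 and 2. The labels were kept as deposited, and comparisons were made with all 6 libraries and again without this library. The *Kdm1a* log2 fold change was -2.56 ± 0.74 (SE) with all 6 libraries (adjusted p = 0.557, edgeR) and -2.91 ± 0.17 without the library labelled Ctrl replicate 4 (adjusted p = 0.000579, edgeR). That library was left out for its *Kdm1a* level. The smaller SE and p for *Kdm1a* without it follow from this choice and are no independent test of *Kdm1a*. Markers of fast myofibers were abundant throughout, at a summed 157300 to 188800 CPM, with none of the 8 at 0 in any library and 1, *Myh4*, lower by the p and fold limits given below.

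Per length, *Foxo4* was the most abundant of the 10 transcripts in the Ctrl libraries and *Sesn3* and *Sirt1* were the least abundant. Levels per kilobase of the longest coding transcript in the 4 Ctrl libraries were 50.8 ± 6.8 CPM per kb (mean ± SD, n = 4) for *Foxo4*, 8.80 ± 5.45 for *Foxo1* and 5.28 ± 1.61 for *Foxo3*. The Ctrl values of *Foxo4* did not overlap those of the other factors, whereas *Foxo1* and *Foxo3* overlapped each other. Among the targets, *Gadd45a* stood at 34.1 ± 4.8 CPM per kb, *Bcl6* at 25.9 ± 6.4, *Cited2* at 24.3 ± 14.7, *Sesn1* at 8.71 ± 2.58, *Ccng2* at 5.34 ± 0.06 and *Sesn3* at 1.82 ± 0.17. *Sirt1* had 2.31 ± 0.33 CPM per kb. In this order the neighbouring pairs *Gadd45a* and *Bcl6*, *Bcl6* and *Cited2*, *Foxo1* and *Sesn1*, *Ccng2* and *Foxo3*, and *Sirt1* and *Sesn3* overlapped between Ctrl libraries. The other neighbours did not. In LSD1skm-/- replicate 2, *Gadd45a* was above *Foxo4* by this length, at 44.7 against 43.0 CPM per kb. When length was taken over the union of all exons, *Foxo4* stayed first at 46.1 ± 6.2 CPM per kb and *Sesn3* last at 1.09 ± 0.10, while *Cited2* moved ahead of *Gadd45a* and *Bcl6*, and *Foxo3* ahead of *Ccng2*.

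**Figure D1:**
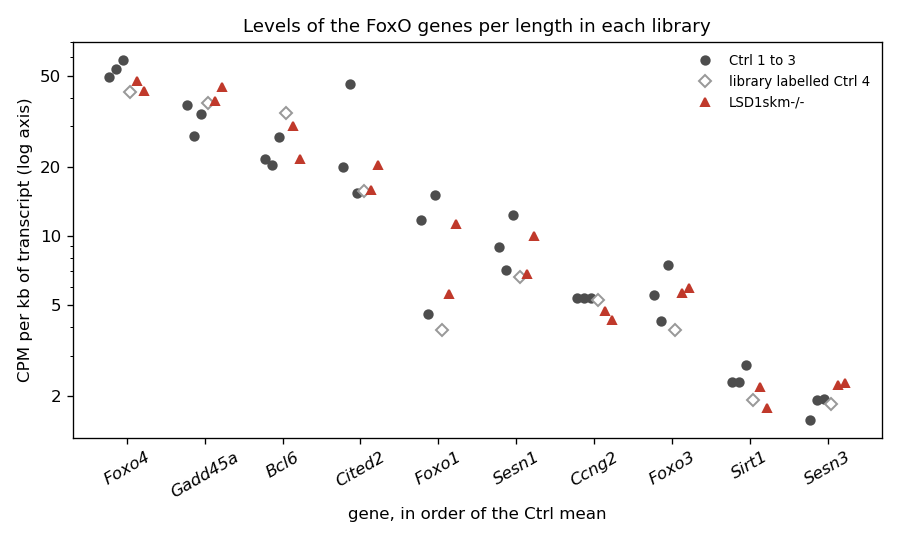
Level of each gene per kilobase of its longest coding transcript (CPM per kb, log axis), with a point for each library: filled circles for Ctrl replicates 1 to 3, an open diamond for the library labelled Ctrl replicate 4 and triangles for LSD1skm-/-. *Foxo4* lies between 42.3 and 58.5 CPM per kb in the 6 libraries and *Sesn3* between 1.58 and 2.29.

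*Foxo1*, on the plus strand of chr3:52268336-52353221 (GRCm38, 3 exons), is the FoxO factor best known for transcription that rises with fasting in muscle. It had 101 and 130.2 CPM in Ctrl replicates 1 and 3, 39.6 CPM in Ctrl replicate 2, 33.8 CPM in the library labelled Ctrl replicate 4, and 48.2 and 97.5 CPM in the LSD1skm-/- libraries. High and low libraries thus occurred under both labels, and both LSD1skm-/- values lay inside the Ctrl range. The highest Ctrl library had 3.86 times the level of the lowest, and 98.5% of the tested genes had a smaller SD of log2 CPM between Ctrl libraries. The log2 fold change was -0.07 ± 0.57 (SE, 95% interval -1.39 to 1.26; adjusted p = 0.977, edgeR). It was -0.31 ± 0.48 without the library labelled Ctrl replicate 4 (adjusted p = 0.768, edgeR) with a 95% interval of -1.44 to 0.82. Leaving out LSD1skm-/- replicate 1 turned the sign, at 0.35, and leaving out Ctrl replicate 3 gave 0.32. Because *Foxo1* spans the widest range of the 10 genes, the 250 bases that precede its RefSeq start are shown, on the plus strand of GRCm38.p6 at chr3:52268087-52268336, with no letters in capitals because none of the motifs searched for below was found there.
Foxo1 upstream: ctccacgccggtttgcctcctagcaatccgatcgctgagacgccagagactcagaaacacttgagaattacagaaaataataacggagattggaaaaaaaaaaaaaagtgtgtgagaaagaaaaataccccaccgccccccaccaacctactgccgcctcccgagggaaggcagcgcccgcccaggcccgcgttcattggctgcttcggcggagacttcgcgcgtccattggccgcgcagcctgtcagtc

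*Foxo3*, on the minus strand of chr10:42181841-42276755 (4 exons), activates autophagy and atrophy genes in muscle when dephosphorylated. Its levels were 37.8, 29.1 and 51.0 CPM in Ctrl replicates 1 to 3, 26.7 CPM in the library labelled Ctrl replicate 4, and 38.5 and 40.4 CPM in the LSD1skm-/- libraries. The LSD1skm-/- libraries lay close together in the middle of the Ctrl range. *Foxo3* thus had a log2 fold change of 0.13 ± 0.25 (95% interval -0.45 to 0.70; adjusted p = 0.873, edgeR) and 0.01 ± 0.22 without the library labelled Ctrl replicate 4 (adjusted p = 0.989, edgeR).

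*Foxo4*, on the plus strand of chrX:101254528-101260873 (3 exons), had 155.7, 168.3 and 185.0 CPM in Ctrl replicates 1 to 3, 133.8 CPM in the library labelled Ctrl replicate 4, and 150.2 and 135.9 CPM in the LSD1skm-/- libraries. The library labelled Ctrl replicate 4 was the lowest of all, and the LSD1skm-/- libraries lay below every Ctrl library once it was left out. The change was -0.17 ± 0.14 on the log2 scale (95% interval -0.50 to 0.16; adjusted p = 0.709, edgeR) and -0.24 ± 0.11 without that library (adjusted p = 0.293, edgeR). Neither passed the test.

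*Sirt1*, on the minus strand of chr10:63319005-63381704 (14 exons), followed *Foxo4* across the libraries. It had 10.2, 10.2 and 12.1 CPM in Ctrl replicates 1 to 3, 8.50 CPM in the library labelled Ctrl replicate 4, and 9.71 and 7.84 CPM in the LSD1skm-/- libraries. The groups overlapped through the library labelled Ctrl replicate 4 and were separate without it. For *Sirt1* the log2 fold change was -0.22 ± 0.17 (95% interval -0.62 to 0.18; adjusted p = 0.680, edgeR) and -0.30 ± 0.15 without it (adjusted p = 0.321, edgeR). Centred on their own means, log2 levels of *Foxo4* and *Sirt1* differed by a root mean square of 0.067 over the 6 libraries, the smallest difference of any pair of the 10 genes. Their own root mean squares were 0.164 and 0.200. Genes outside the 10 lay closer to each of them, as given below, so the likeness is not particular to this pair. This is a description of 6 libraries and carries no test.

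Of the targets, *Gadd45a* and *Sesn3* were higher in both LSD1skm-/- libraries than in any Ctrl library and *Ccng2* was lower, but none of them passed the adjusted p. *Gadd45a*, on the minus strand of chr6:67035096-67037457 (4 exons), encodes a stress-induced protein that slows the cell cycle, and it is induced in denervated and fasted muscle. It had 45.3, 33.5 and 41.4 CPM in Ctrl replicates 1 to 3, 46.4 CPM in the library labelled Ctrl replicate 4, and 47.2 and 54.6 CPM in the LSD1skm-/- libraries. The nearest values of the groups, in the library labelled Ctrl replicate 4 and LSD1skm-/- replicate 1, were almost equal. For *Gadd45a* the log2 difference was 0.29 ± 0.15 (95% interval -0.06 to 0.64; adjusted p = 0.571, edgeR) and 0.35 ± 0.15 without the library labelled Ctrl replicate 4 (adjusted p = 0.242, edgeR).

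*Sesn1*, on the plus strand of chr10:41809935-41908424, and *Sesn3*, on the plus strand of chr9:14275067-14333101, with 10 exons each, encode sestrins, which restrain mTORC1 and limit oxidative damage. *Sesn3* had 14.4, 17.5 and 17.6 CPM in Ctrl replicates 1 to 3, 16.8 CPM in the library labelled Ctrl replicate 4, and 20.3 and 20.9 CPM in the LSD1skm-/- libraries. Both LSD1skm-/- libraries exceeded every Ctrl library, with or without the library labelled Ctrl replicate 4. Its log2 fold change was 0.31 ± 0.12 (95% interval 0.04 to 0.59; adjusted p = 0.557, edgeR), a ratio of 1.24, and 0.32 ± 0.13 without that library (adjusted p = 0.215, edgeR). *Sesn1* had 33.9, 27.0 and 46.8 CPM in Ctrl replicates 1 to 3, 25.1 CPM in the library labelled Ctrl replicate 4, and 26.0 and 38.2 CPM in the LSD1skm-/- libraries. Unlike *Sesn3*, it varied about as much between the LSD1skm-/- libraries as between the Ctrl libraries, and the groups overlapped. Its log2 fold change was -0.05 ± 0.27 (adjusted p = 0.965, edgeR) and -0.16 ± 0.25 without the library labelled Ctrl replicate 4 (adjusted p = 0.771, edgeR). The difference between the sestrins was not tested.

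*Ccng2*, on the plus strand of chr5:93267257-93276231 (8 exons), encodes cyclin G2, an inhibitor of cell cycle progression. It had 15.1 CPM in each of Ctrl replicates 1 to 3, 14.8 CPM in the library labelled Ctrl replicate 4, and 13.2 and 12.1 CPM in the LSD1skm-/- libraries. It varied the least of the 10 genes between Ctrl libraries. The highest had 1.02 times the level of the lowest, and 0.114% of the tested genes had a smaller SD of log2 CPM. Counting noise alone is larger than this at the 490 to 646 reads of *Ccng2* in these libraries. The closeness is thus not read as a trait of the gene. The fit takes in counting noise and pools the spread over genes, so its standard error of 0.10 is wider than this gene's own Ctrl spread. On the log2 scale the change was -0.25 ± 0.10 (95% interval -0.49 to -0.01; adjusted p = 0.557, edgeR), a ratio of 0.844, and -0.25 ± 0.11 without the library labelled Ctrl replicate 4 (adjusted p = 0.259, edgeR). Both LSD1skm-/- libraries were below every Ctrl library in either comparison.

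*Cited2*, on the plus strand of chr10:17723218-17725674 with its longest coding transcript in 1 exon, encodes a transcriptional coregulator that competes with HIF-1 for CBP and p300. It had 48.0, 111 and 37.1 CPM in Ctrl replicates 1 to 3, 38.0 CPM in the library labelled Ctrl replicate 4, and 38.2 and 49.0 CPM in the LSD1skm-/- libraries. Ctrl replicate 2 alone was high, and the remaining 5 libraries lay between 37.1 and 49.0 CPM. The fit gave a log2 fold change of -0.42 ± 0.45 (95% interval -1.48 to 0.63; adjusted p = 0.769, edgeR) and -0.58 ± 0.43 without the library labelled Ctrl replicate 4 (adjusted p = 0.505, edgeR). Without Ctrl replicate 2 the sign turned, to 0.09.

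*Bcl6*, on the minus strand of chr16:23965052-23988852 (10 exons), encodes a transcriptional repressor. It had 76.1, 72.1 and 95.5 CPM in Ctrl replicates 1 to 3, 121 CPM in the library labelled Ctrl replicate 4, and 106 and 76.1 CPM in the LSD1skm-/- libraries. The LSD1skm-/- libraries differed from each other by 1.40 times and both lay inside the Ctrl range. The log2 fold change was -0.00 ± 0.23 (95% interval -0.54 to 0.54; adjusted p = 0.999, edgeR) and 0.17 ± 0.18 without the library labelled Ctrl replicate 4 (adjusted p = 0.655, edgeR).

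**Figure D2:**
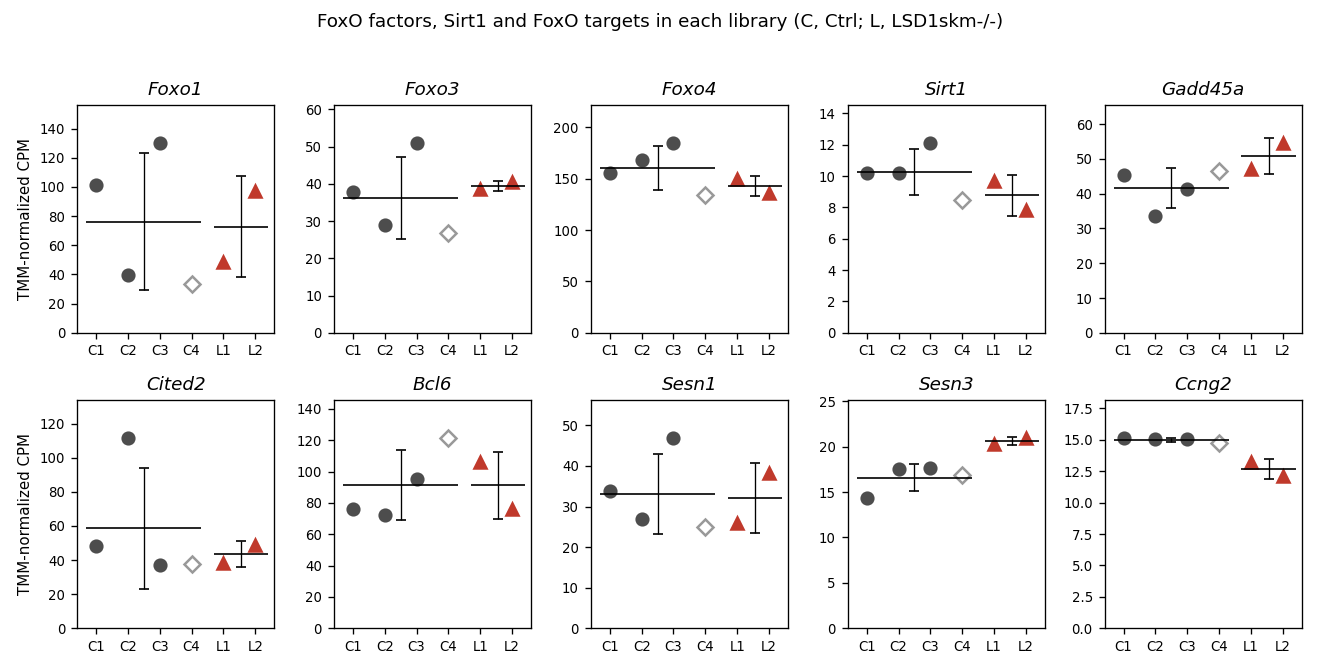
TMM-normalized CPM of each of the 10 genes in the 6 libraries (C1 to C4, Ctrl; L1 and L2, LSD1skm-/-), with the group mean as a line and the SD as a bar; the open diamond is the library labelled Ctrl replicate 4. *Foxo1* spreads from 33.8 to 130.2 CPM, *Cited2* stands out in C2 at 111 CPM, and *Ccng2* and *Sesn3* separate by label.

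Counted over the whole set, 0 of the 10 genes had an adjusted p-value under 0.05 with all 6 libraries, where 0% of the 11364 tested genes did (edgeR's quasi-likelihood test). By DESeq2, 0 of the 10 and 0.405% of the tested genes did. A looser pair of limits used the cutoffs of the study's methods, p under 0.05 with a fold change above 1.3 or below 0.77, applied here to edgeR's unadjusted p. The study used DESeq2 and does not say whether its p was adjusted. These limits were passed by 0 of the 10 genes and by 6.31% of the tested genes. At an unadjusted p-value under 0.05 alone, 2 of the 10 passed, *Sesn3* and *Ccng2*, against 8.9% of the tested genes. The groups did not overlap for 3 of the 10, against 17.8% of the tested genes. *Gadd45a* and *Sesn3* were above every Ctrl library, as were 9.8% of the tested genes, and *Ccng2* was below, as were 8.02%.

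The same counts without the library labelled Ctrl replicate 4 were 0 of 10 past the adjusted p, against 5.39% of the tested genes, and 0 of 10 past the p and fold limits, against 15.2%. An unadjusted p-value under 0.05 was found for 2 of the 10, *Gadd45a* and *Sesn3*, against 20.2%. No overlap was found for 5 of the 10, against 37.7% of the tested genes. *Gadd45a* and *Sesn3* were again above (20.3% of the tested genes), and *Foxo4*, *Sirt1* and *Ccng2* were below (17.3%). With 10 genes, a single gene more or less moves these shares widely, and no departure from the tested genes is read from them. The median log2 fold change of the 10 genes was -0.06 with all 6 libraries and -0.20 without the library labelled Ctrl replicate 4, against -0.01 and -0.01 over all genes tested.

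**Figure D3:**
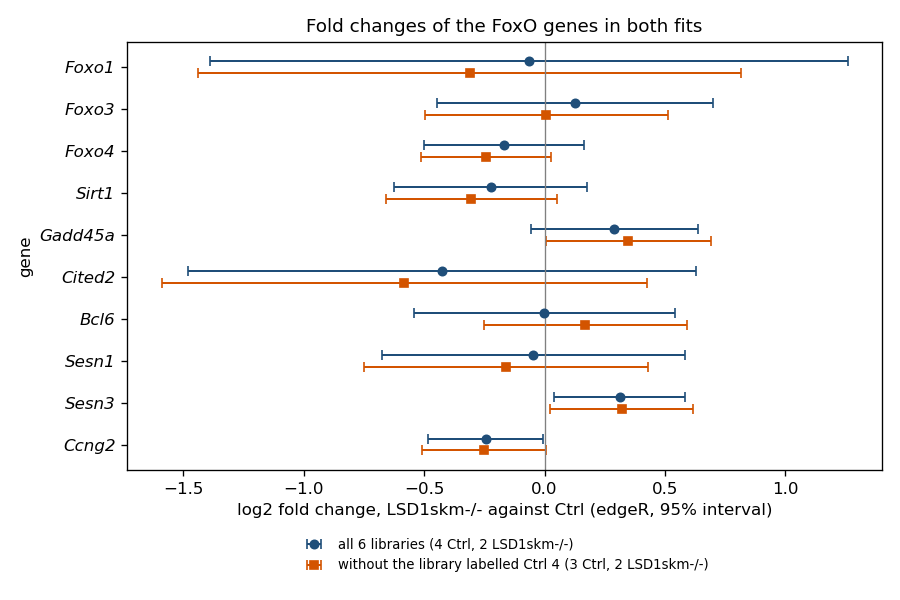
Log2 fold change of each gene in LSD1skm-/- against Ctrl libraries from edgeR, with its 95% interval, for all 6 libraries (circles) and without the library labelled Ctrl replicate 4 (squares). *Foxo1* and *Cited2* have the widest intervals, the interval of *Sesn3* lies above 0 in both fits, and no gene passed the adjusted p in either.

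The 10 genes did not share a single pattern over the libraries. *Foxo1* and *Sesn1* were above their own means in Ctrl replicates 1 and 3 and LSD1skm-/- replicate 2 and below them in the other libraries, so their split cut across the labels. *Foxo3* was above its mean in those libraries and in LSD1skm-/- replicate 1, by 0.08 there and 0.05 in Ctrl replicate 1. Its centred log2 level differed from that of *Sesn1* by a root mean square of 0.172. *Cited2* was lowest in Ctrl replicate 3, where *Foxo1* was highest, and the pair differed more than any other, by 1.06. *Foxo4* and *Sirt1* were the closest pair, at 0.067. *Ccng2* differed from them by 0.137 and 0.148, more than its own root mean square of 0.122. This measure is small between any genes that vary little, so *Ccng2* is not read as sharing their pattern. These likenesses rest on 6 libraries that share their depth and scaling, and no test was made of them.

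**Figure D4:**
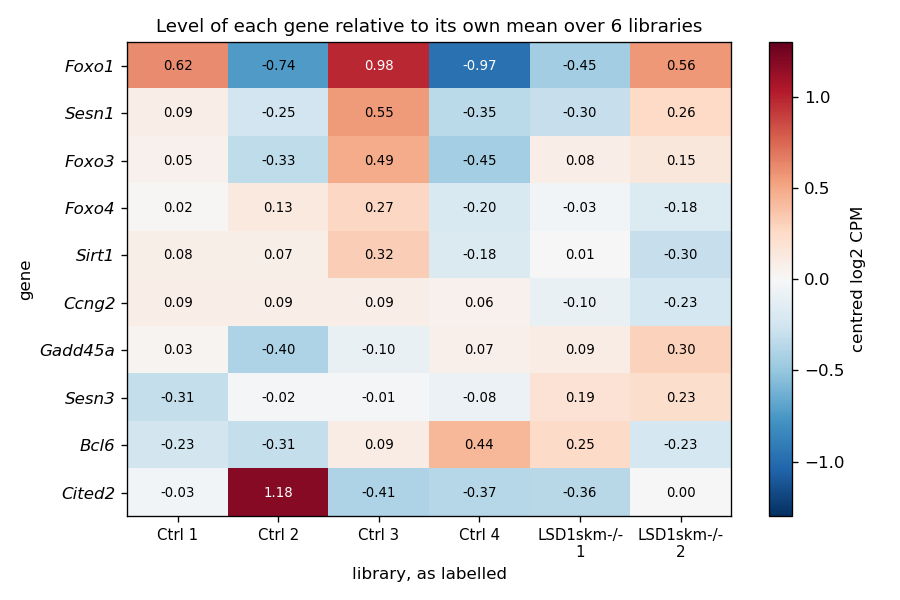
Log2 CPM of each gene minus its mean over the 6 libraries, in colour and as printed values, with libraries in columns as labelled. *Foxo1* runs from -0.97 to 0.98 and *Cited2* reaches 1.18 in Ctrl replicate 2, while *Ccng2* stays between -0.23 and 0.09.

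Among all tested genes, the closest to *Foxo1* by this measure were *Il6ra*, which encodes the interleukin-6 receptor, at 0.157 and *Cebpd*, which encodes a glucocorticoid-responsive transcription factor, at 0.225, where the root mean square of *Foxo1* itself was 0.746. *Cebpd* had 101, 57.8 and 135 CPM in Ctrl replicates 1 to 3, 47.3 CPM in the library labelled Ctrl replicate 4, and 66.4 and 107 CPM in the LSD1skm-/- libraries. The ubiquitin ligase *Trim63*, singled out after its values were seen, ranked 5 for *Foxo1* at 0.345. It had 410 CPM, 201 CPM and 678 CPM in Ctrl replicates 1 to 3, 203 CPM in the library labelled Ctrl replicate 4, and 399 and 410 CPM in the LSD1skm-/- libraries, high and low in nearly the same libraries as *Foxo1*. The closest genes to *Foxo3* were *Wbp1l* at 0.077 and *Ramp1* at 0.095. The glucocorticoid-induced *Tsc22d3*, also singled out after its values were seen, followed at rank 3 at 0.102. These likenesses did not hold for both factors. *Tsc22d3* ranked 67 for *Foxo1*, at 0.531. For *Foxo3*, *Cebpd* ranked 1368 at 0.278 and *Trim63* ranked 3504 at 0.317, where the root mean square of *Foxo3* itself was 0.309. *Foxo4* was closest to *Dcaf8* (0.019) and *Pcyt1a* (0.026). *Sirt1* was closest to *Arid1b* (0.024) and *Mypn* (0.029). For *Sesn1* the closest were *Fam117b* (0.094) and *Gm28651* (0.13), and for *Sesn3* they were *Btbd9* (0.033) and *Zc2hc1a* (0.038). *Gadd45a* was nearest to *Galnt16* (0.032) and *Chac2* (0.039), *Bcl6* to *Braf* (0.071) and *Fam129a* (0.076), and *Ccng2* to *Sltm* (0.019) and *Ints4* (0.025). *Cited2* was nearest to *Gm43699* (0.196) and *Socs3* (0.203), where the root mean square of *Cited2* itself was 0.552.

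Genes of the immediate early response, induced within minutes by stimulation or handling of tissue, include *Fos* and *Egr1*, which ran opposite to *Foxo1* over the libraries. *Fos*, singled out after its values were seen, had 3.65, 43.3 and 5.04 CPM in Ctrl replicates 1 to 3, 47.9 CPM in the library labelled Ctrl replicate 4, and 22.6 and 2.71 CPM in the LSD1skm-/- libraries. *Egr1*, likewise singled out, had 3.62, 23.7, 4.38, 25.3, 12.9 and 4.12 CPM in the same order. Both were high in the 3 libraries where *Foxo1* was low. Of the other listed genes, only *Fosb*, which was not tested, was higher in all 3 of those libraries than in the rest. *Jun* was instead highest in Ctrl replicates 1 and 3, at 164 and 139.5 CPM, as was *Ier2*, so the list as a whole did not run opposite to *Foxo1*. Of the 8 listed immediate early genes, 7 were tested, and 3 (*Jun*, *Btg2* and *Atf3*) were lower in the LSD1skm-/- libraries by the p and fold limits, with all 6 libraries and again without the library labelled Ctrl replicate 4. The summed level of the 8 was 224 to 305 CPM in Ctrl and 123 to 191 CPM in LSD1skm-/- libraries. The 11 listed glucocorticoid-induced genes, with a summed level of 1384 to 2160 CPM in Ctrl and 1704 to 1986 CPM in LSD1skm-/- libraries, gave 0 calls by either limit in either comparison, and 0 reached an unadjusted p-value under 0.05 (edgeR). Their part in the FoxO values was not tested.

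Markers of other cells differed between the labels as well, and in bulk muscle fewer cells of a type and less RNA per cell cannot be told apart. The 7 markers of slow myofibers summed to 1031 to 2069 CPM in Ctrl and 442 to 795 CPM in LSD1skm-/- libraries, and 6 of the 7 fell by the p and fold limits with all 6 libraries. Of the 7 adipocyte markers, 6 were tested and 5 fell by the same limits, with sums of 172 to 491 CPM in Ctrl and 166 to 178 CPM in LSD1skm-/- libraries. The sum for Ctrl replicate 3 thus lay within the LSD1skm-/- range. Most of each sum was *Fabp4*, named after its value was seen, at 166 CPM in Ctrl replicate 3 and 163 and 169 CPM in the LSD1skm-/- libraries. Of the 6 tested markers, 4 were lower in both LSD1skm-/- libraries than in any Ctrl library, as were 8.02% of all tested genes. Fibroblast markers summed to 465 to 736 CPM and 646 to 765 CPM, with 2 of 7 higher, and blood markers to 28.2 to 52.2 CPM and 64.1 to 65.8 CPM, with 4 of 5 higher. Endothelial markers summed to 196 to 255 CPM in Ctrl and 170 to 171 CPM in LSD1skm-/- libraries, with 1 of 8 lower. None of the immune (24.4 to 73.6 CPM and 38.4 to 62.6 CPM), Schwann (47.3 to 166 CPM and 57.4 to 96.1 CPM) or satellite cell markers (31.9 to 44.3 CPM and 41.4 to 44.4 CPM) passed those limits with all 6 libraries. Without the library labelled Ctrl replicate 4, these limits were passed by 6 of 7 slow myofiber and 5 of 6 tested adipocyte markers, all lower, and by 5 of 7 fibroblast and 5 of 5 blood markers, all higher. They were passed by 0 of 8 endothelial markers and by 1 immune (*Adgre1*) and 1 satellite cell marker (*Myf5*), both higher. The Ctrl sums without it reached 508 CPM for fibroblast and 43.7 CPM for blood markers, below both LSD1skm-/- libraries. The T cell marker *Cd3e* was the sole marker at 0 reads in a library. The part of these cells in the levels of the 10 genes was not tested.

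Upstream of the FoxO factors, none of the listed regulators passed either limit with all 6 libraries. The list held 38 genes of insulin and AKT signaling, other FoxO kinases, acetylases and deacetylases, ubiquitin ligases, phosphoserine-binding adaptors and cofactors, of which 37 were tested. By the p and fold limits 0 were higher and 0 lower, against 390 higher and 327 lower of the 11364 genes in the fit. Of the 37 regulators, 1 reached an unadjusted p-value under 0.05, against 8.9% of the tested genes, and 0 passed the adjusted p (edgeR). Their median log2 fold change was -0.05. *Akt2*, the main AKT of insulin action in muscle, had 122, 138 and 126 CPM in Ctrl replicates 1 to 3, 97.2 CPM in the library labelled Ctrl replicate 4, and 125 and 122 CPM in the LSD1skm-/- libraries. *Irs1*, the insulin receptor substrate, had 62.0, 184 and 51.2 CPM in Ctrl replicates 1 to 3, 86.5 CPM in the library labelled Ctrl replicate 4, and 116 and 67.7 CPM in the LSD1skm-/- libraries, which is high where *Foxo1* was low. These values and those of *Akt2* were picked for their roles, after they were seen, and neither gene passed the test. The log2 fold change of *Akt2* was 0.03 ± 0.14 with all 6 libraries and -0.05 ± 0.10 without the library labelled Ctrl replicate 4, and that of *Irs1* was -0.06 ± 0.50 and -0.10 ± 0.53. Without the library labelled Ctrl replicate 4, 1 of the 37 was lower by the p and fold limits and 0 were higher. Over the 11364 tested genes, 574 were lower and 1150 higher in that comparison. The lower regulator was *Crebbp*, which encodes the acetylase CBP, named after its value was seen, at -0.40 ± 0.16 (adjusted p = 0.227, edgeR). The median of the regulators was -0.05.

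Among 40 other FoxO targets listed, 38 were tested, 3 were lower by the p and fold limits with all 6 libraries and 0 were higher, against 6.31% of all tested genes in either direction. The lower genes were *Mstn*, *Fbxo21* and *Trib2*. *Mstn* encodes myostatin, which limits muscle growth, and had 158, 102 and 124 CPM in Ctrl replicates 1 to 3, 57.2 CPM in the library labelled Ctrl replicate 4, and 47.5 and 53.1 CPM in the LSD1skm-/- libraries. Its log2 fold change was -1.13 ± 0.36 (adjusted p = 0.557, edgeR) with all 6 libraries and -1.34 ± 0.19 without the library labelled Ctrl replicate 4 (adjusted p = 0.00898, edgeR), which made it the sole gene of the list past the adjusted p in that comparison. *Fbxo21*, which encodes an F-box protein of a ubiquitin ligase, had 8.91 to 12.0 CPM in the Ctrl libraries and 6.77 and 8.19 CPM in the LSD1skm-/- libraries (log2 fold change -0.44 ± 0.17). *Trib2*, which encodes a pseudokinase, had 10.4 to 18.3 CPM and 11.6 and 6.49 CPM (log2 fold change -0.72 ± 0.30). Neither passed the p and fold limits without the library labelled Ctrl replicate 4, at -0.35 ± 0.15 for *Fbxo21* and -0.60 ± 0.29 for *Trib2*. Calls by these limits also changed when other libraries were left out. *Mstn* lost its call without either LSD1skm-/- library, *Fbxo21* without Ctrl replicate 3 or LSD1skm-/- replicate 1, and *Trib2* without Ctrl replicate 1, Ctrl replicate 2 or LSD1skm-/- replicate 2, where it was at -0.35. *Txnip*, which encodes a thioredoxin-binding protein and was named after its value was seen, was the other gene lower by the p and fold limits without the library labelled Ctrl replicate 4, at -0.41. The median of the list was -0.09 with all 6 libraries and -0.11 without that library.

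The atrophy ligases of the target list, singled out with *Pdk4* for their known roles after their values were seen, overlapped between the labels. *Fbxo32* had 372, 223 and 727 CPM in Ctrl replicates 1 to 3, 341 CPM in the library labelled Ctrl replicate 4, and 528 and 427 CPM in the LSD1skm-/- libraries, and its log2 change was 0.20 ± 0.40 (adjusted p = 0.879, edgeR). *Trim63*, whose values are given above, had 0.12 ± 0.47 (adjusted p = 0.948, edgeR). Without the library labelled Ctrl replicate 4, *Fbxo32* was at 0.12 ± 0.42 and the sign of *Trim63* turned, at -0.09 ± 0.42 (adjusted p = 0.907 and 0.932, edgeR). *Pdk4*, which encodes a kinase that shuts down glucose oxidation in fasting, ranged from 368 to 2114 CPM in the Ctrl libraries and had 1458 and 738 CPM in the LSD1skm-/- libraries (log2 fold change -0.14 ± 0.58, and -0.13 ± 0.63 without the library labelled Ctrl replicate 4). Like *Fbxo32*, it was highest in Ctrl replicate 3 and lowest in Ctrl replicate 2.

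Relatives of the 10 genes were examined in the same way. Of 14 listed family members, 13 were tested and 2 were higher by the p and fold limits with all 6 libraries, *Foxo6* and *Gadd45b*, against 6.31% of all tested genes in either direction. *Foxo6* passed these limits with any 1 of the 6 libraries left out, whereas *Gadd45b* passed them without the library labelled Ctrl replicate 4 and lost the call when any of the others was left out. *Foxo6* encodes a further FoxO factor and had 4.60, 5.85 and 5.30 CPM in Ctrl replicates 1 to 3, 6.47 CPM in the library labelled Ctrl replicate 4, and 8.22 and 8.83 CPM in the LSD1skm-/- libraries. Both LSD1skm-/- libraries exceeded every Ctrl library, and the log2 fold change was 0.62 ± 0.16 (adjusted p = 0.557, edgeR), or 0.70 ± 0.15 without the library labelled Ctrl replicate 4 (adjusted p = 0.0445, edgeR). *Gadd45b* had 27.3, 24.0 and 22.8 CPM in Ctrl replicates 1 to 3, 42.8 CPM in the library labelled Ctrl replicate 4, and 43.2 and 48.3 CPM in the LSD1skm-/- libraries. *Gadd45g* had 79.6, 81.2 and 104 CPM in Ctrl replicates 1 to 3, 170 CPM in the library labelled Ctrl replicate 4, and 154 and 159 CPM in the LSD1skm-/- libraries. For both stress-induced relatives of *Gadd45a*, the library labelled Ctrl replicate 4 stood with the LSD1skm-/- libraries and apart from Ctrl replicates 1 to 3. Their log2 fold changes were 0.65 ± 0.24 and 0.53 ± 0.30 with all 6 libraries (adjusted p = 0.557 and 0.599, edgeR) and 0.89 ± 0.12 and 0.83 ± 0.14 without it (adjusted p = 0.00676 and 0.0157, edgeR). Whether the family members differed from each other in response was not tested. Without that library 4 of the 13 passed the p and fold limits, all higher, against 15.2% of all tested genes. *Sirt5*, a mitochondrial sirtuin named after its value was seen, was the relative called besides *Foxo6*, *Gadd45b* and *Gadd45g*, at 0.42. The list's median was 0.09 with all 6 libraries and 0.17 without the library labelled Ctrl replicate 4.

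**Figure D5:**
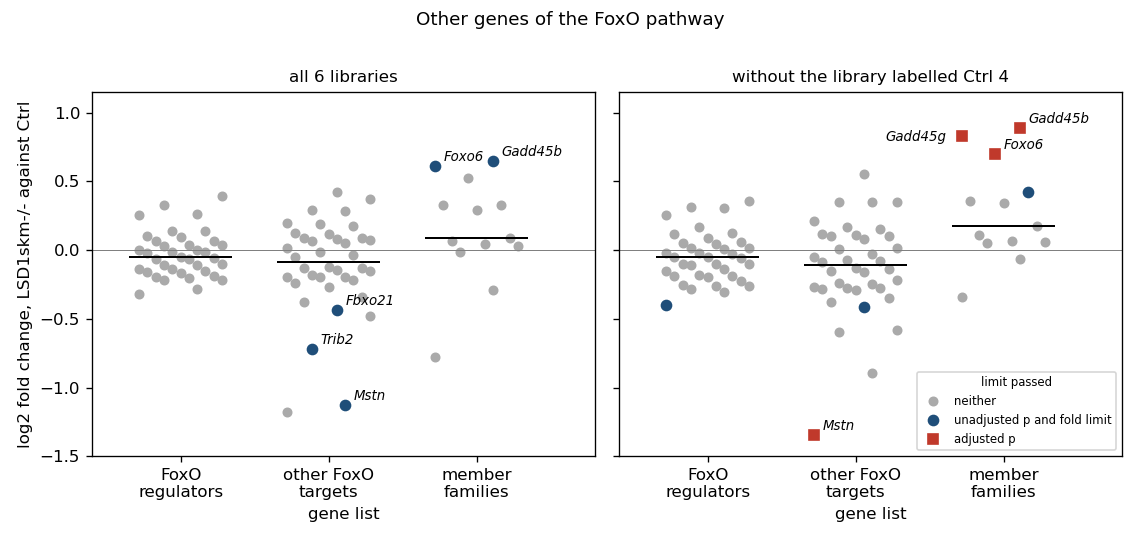
Log2 fold change (LSD1skm-/- against Ctrl) of each tested gene of the 3 lists, with all 6 libraries on the left and without the library labelled Ctrl replicate 4 on the right; lines are list medians, and colours give the limit passed. With all 6 libraries no regulator passed a limit, 3 other targets were lower and 2 family members were higher.

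Promoter windows of 9 of the 10 genes were found among RefSeq promoters of GRCm38.p6, from 250 bases before to 50 bases after the start, in 11 windows because *Bcl6* and *Sesn1* have more than a single start. *Foxo4* had no entry. The forkhead motif GTAAACA was searched on both strands and occurred in 1 of the 11 windows, against 3.65% of the 32851 windows of all genes. It lies at *Sesn1*, with its first base 22 bases after the start, and is shown with its surroundings on the plus strand at chr10:41810585-41810614, with the motif, on the opposite strand as TGTTTAC, in capitals.
Sesn1 site: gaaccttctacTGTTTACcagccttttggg
The insulin response motif CAAAACA, searched in the same way, also occurred in 1 of the 11 windows, against 6.28% of all windows. This is the window of *Ccng2*, where the motif begins 16 bases before the start. Because *Ccng2* is the target with the smallest spread and no overlap between the labels, the 250 bases before its RefSeq start are shown. They lie on the plus strand at chr5:93267323-93267572, with the motif in capitals. The RefSeq start is downstream of the GENCODE start, so these bases lie inside the GENCODE span of the gene given above.
Ccng2 upstream: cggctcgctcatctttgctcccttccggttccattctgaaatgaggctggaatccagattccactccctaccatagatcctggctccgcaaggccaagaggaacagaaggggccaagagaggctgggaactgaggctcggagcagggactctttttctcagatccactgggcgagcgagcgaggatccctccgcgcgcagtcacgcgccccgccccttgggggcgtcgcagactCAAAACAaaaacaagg
The core CATGCGC of the site of NRF1, a factor whose motif the study examined at LSD1-bound promoters, occurred in 0 of the 11 windows and 3.91% of all windows. The 250 bases before the start had a median GC content of 59.6% in the 11 windows, against 52.4% over all windows. A match to these letters describes the sequence and does not show that a factor binds there.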

How the data were processed

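Counts were taken from a table that the authors deposited: integer read counts for each gene, without normalization, for 6 libraries of muscle (polyA RNA, single-end reads of 50 bases). The authors mapped reads to mm10 and kept uniquely aligned ones; the text names htseq-count and HOMER for these steps, and no aligner is given in the sources used here. Of 27041 rows, 14 symbols appear more than once (29 rows), none of them for a gene named here. Whether counting used strand is not stated.

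Libraries were grouped by their labels, 4 Ctrl and 2 LSD1skm-/-. Totals ranged from 30654828 to 41278769 counts. Every pair of libraries differed beyond counting noise (chi-square over its degrees of freedom, 32.9 to 127), so none was counted as a repeat. Rows with a mean count above 50 (11364) were compared with edgeR 4.0.16 in R 4.3.3 (quasi-likelihood test after TMM scaling, with the group as sole covariate) with Benjamini-Hochberg adjustment over all of them. Standard errors came from the log2 fold change and the F statistic, and 95% intervals from the t quantile at the fit's degrees of freedom. A second pair of limits (p and fold limits) was an unadjusted edgeR p-value under 0.05 with a fold change above 1.3 or below 0.77. The study's methods give these cutoffs for DESeq2 and do not say whether p was adjusted. DESeq2 1.42.0, other scalings and filters, a replicate block, and each library left out were alternatives, and DESeq2 without the library labelled Ctrl replicate 4 was added after seeing the data.

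Likeness between genes was the root mean square difference of log2 CPM (prior count 2) centred on each gene's mean over 6 libraries. The genes named are the 10 genes and *Kdm1a*, the 2 nearest genes of each, and, from lists of FoxO regulators, other FoxO targets and family members, those past the p and fold limits with all 6 libraries or past the adjusted p without the library labelled Ctrl replicate 4. Others are said to be singled out. *Irs2* and *Insr* are in both the regulator and target lists, and *Sirt2*, *Sirt3* and *Sirt6* in both the regulator and family lists. The 10 genes and all lists were chosen with earlier results of these data known. Positions and lengths are from GENCODE M21 on GRCm38, and promoters from RefSeq on GRCm38.p6. Binding data were not analysed here.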

Additional observations from a re-analysis of the deposited data

Results flagged for a closer look

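Among the 31 results examined for a Ctrl library far from the other 3, 2 had such a gap, where chance gives about 1 in 20. Both gaps were in the library labelled Ctrl replicate 4. For *Kdm1a*, the gap from that library to the nearest Ctrl library took up 0.879 of the group's whole range on the log2 scale (3.66 against 22.0 to 28.1 CPM). For *Ccng2* the gap took up 0.906 of the range, but the range itself was small, at 14.8 CPM against 15.1 CPM in the other 3 libraries. With that library left out, the log2 fold change of *Ccng2* was -0.25, as it was with all 6 libraries.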

How the results depend on the processing

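Over 130 values of the 10 genes under alternatives, 116 kept the direction found with all 6 libraries and 14 did not, and 6 genes kept it in every alternative run (*Foxo3*, *Foxo4*, *Sirt1*, *Gadd45a*, *Sesn3* and *Ccng2*). *Foxo1* turned to 0.111 under the replicate block, and leaving out a library gave -0.662 to 0.35 (above 0 without Ctrl replicate 1, 0.103, Ctrl replicate 3, 0.323, or LSD1skm-/- replicate 1). *Sesn1* turned to 0.0594 under the replicate block and spanned -0.354 to 0.199 with a library left out (above 0 without Ctrl replicate 3, 0.164, or LSD1skm-/- replicate 1), and *Cited2* spanned -0.616 to 0.0861 (above 0 without Ctrl replicate 2). *Bcl6* turned to 0.0317 with library size scaling, 0.00407 with filterByExpr and 0.281 under the replicate block, and spanned -0.267 to 0.221 with a library left out (above 0 without Ctrl replicate 3, 0.0225, Ctrl replicate 4, 0.169, or LSD1skm-/- replicate 2). The cause was not tested.

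The number of the 10 genes past the adjusted p was 0 under every alternative but the replicate block, where it was 1 (*Cited2*, -0.760), as was the number past the p and fold limits. Without the fold limit 2 passed. Over all genes, the adjusted p was passed by 0 with all 6 libraries, 46 by DESeq2, 149 with no filter beyond 1 count, 632 under the replicate block, 1056 by DESeq2 without Ctrl replicate 4 and 0 to 612 with a library left out (6 without Ctrl replicate 3, 612 without Ctrl replicate 4). The p and fold limits were passed by 717 with all 6 libraries, 1909 with no filter beyond 1 count, 1668 under the replicate block, 1664 by DESeq2 without Ctrl replicate 4 and 340 to 1724 with a library left out (474 without Ctrl replicate 1, 340 without LSD1skm-/- replicate 2). The median of the FoxO regulators was -0.00919 with library size scaling and -0.0857 to 0.00952 with a library left out. The block rests on replicate numbers that 2 pairs of libraries share. Deviations of same-numbered libraries correlated at -0.233 and -0.033, so the numbers were not read as pairs.

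*Kdm1a*, *Mstn*, *Fbxo21*, *Trib2*, *Foxo6*, *Gadd45b* and *Gadd45g* kept their direction in every alternative run on them. With 2 LSD1skm-/- libraries, the 95% intervals of *Foxo1* and *Cited2* are the widest. With all 6 libraries, only *Sesn3* and *Ccng2* had intervals narrow enough to show a change of the size found for *Sesn3*. The intervals of the other genes, *Foxo3*, *Sesn1* and *Bcl6* among them, were too wide for this. Where an alternative left 1 LSD1skm-/- library, it was assumed to vary like the Ctrl group. The shallowest of the 10 genes was *Sirt1*, with a mean of 346 reads.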
